A study of Mus musculus with 18 samples.

Results

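A set of 10 genes of the hepatic lipid droplet was followed in the liver of mice that carry an error-prone ribosome. They encode the droplet fusion proteins Cidec and Cideb, the coat proteins Plin2, Plin3, Plin4 and Plin5, the lipases Pnpla2 and Pnpla3, and the lipase cofactors G0s2 and Abhd5. The 10 genes were chosen by function from the 22524 genes listed for each liver, and they were chosen because Cidec was higher in the mutant liver. The comparison of the 2 genotypes is therefore a description for these genes, and no p-value is printed for a member; whether a member was called is given only as a count beside the share of all genes called, or where leaving out mice changes it.

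Liver RNA was sequenced from 10 A226Y and 8 wild-type (WT) mice, with 1 library per mouse. All mice were females of 15 months, and both genotypes carried the CMV-Cre transgene, in which the CMV promoter drives Cre recombinase in all tissues. A226Y mice were heterozygous for Rps2-A226Y, a ribosomal ambiguity mutation of the small-subunit protein RPS2 that lowers the accuracy of decoding. The targeted stem cells were of 129/Sv origin and the line was backcrossed to C57BL/6. Excision of the floxed stop cassette was incomplete, so that the mutant livers were mosaics in which some cells still carried the silent, unexcised allele.

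Lipid droplets are cytosolic stores of triglyceride and sterol ester, enclosed by a single layer of phospholipid and a coat of proteins. Perilipins coat the surface and control the access of lipases, and CIDE proteins gather at contacts between droplets and let lipid pass from the smaller to the larger. In lipolysis the adipose triglyceride lipase, encoded by Pnpla2, removes the first fatty acid from triglyceride. Its activity is raised by ABHD5 and inhibited by G0S2. In liver, droplet proteins are known for their rise in steatosis and in fasting, when fatty acids reach the hepatocyte.

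The regions before the start sites of the members that differed most between genotypes are shown because each of these genes is described below by its mRNA level alone. The sequences are from RefSeq on GRCm38.p6 and hold the 250 bases before each start, and all 10 members matched an entry, with 12 starts in all. Capitals mark the 4 motifs searched on both strands, which do not overlap one another in these windows. The first, AGGTCA, is a half-site of nuclear receptors. The second, CACGTG, is an E-box. The third, GGGCGG, is the GC box of Sp1-type factors. The last, TATAAA, is a TATA box. A match on the other strand appears as the reverse complement, for example CCGCCC for the GC box. Cidec has 2 starts, at chr6:113435761-113436010 and chr6:113434765-113435014, both on the minus strand, and the second window lies within the annotated gene. The Plin5 window is chr17:56117549-56117798 on the minus strand and the Pnpla2 window is chr7:141454938-141455187 on the plus strand. The Pnpla3 window is chr15:84167566-84167815 on the plus strand.
Cidec, first start: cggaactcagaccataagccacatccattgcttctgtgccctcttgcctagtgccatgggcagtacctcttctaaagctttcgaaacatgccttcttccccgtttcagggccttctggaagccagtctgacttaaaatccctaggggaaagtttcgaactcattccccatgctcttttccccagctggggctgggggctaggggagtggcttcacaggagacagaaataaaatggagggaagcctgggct
Cidec, second start: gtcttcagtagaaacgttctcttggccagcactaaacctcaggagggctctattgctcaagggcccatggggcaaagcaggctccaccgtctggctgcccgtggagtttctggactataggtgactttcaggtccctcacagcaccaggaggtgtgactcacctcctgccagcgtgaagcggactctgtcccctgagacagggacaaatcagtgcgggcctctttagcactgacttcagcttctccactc
Plin5, first start: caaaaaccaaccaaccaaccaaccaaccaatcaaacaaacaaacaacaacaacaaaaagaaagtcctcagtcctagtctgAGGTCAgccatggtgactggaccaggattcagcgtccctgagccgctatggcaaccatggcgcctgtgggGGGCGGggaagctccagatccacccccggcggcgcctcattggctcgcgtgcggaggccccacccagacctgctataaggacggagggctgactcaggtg
Pnpla2: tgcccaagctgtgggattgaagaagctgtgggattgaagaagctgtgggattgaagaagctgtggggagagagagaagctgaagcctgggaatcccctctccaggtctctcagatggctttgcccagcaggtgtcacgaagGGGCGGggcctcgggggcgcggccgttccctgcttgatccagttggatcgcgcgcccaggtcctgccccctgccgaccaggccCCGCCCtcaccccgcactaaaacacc
Pnpla3: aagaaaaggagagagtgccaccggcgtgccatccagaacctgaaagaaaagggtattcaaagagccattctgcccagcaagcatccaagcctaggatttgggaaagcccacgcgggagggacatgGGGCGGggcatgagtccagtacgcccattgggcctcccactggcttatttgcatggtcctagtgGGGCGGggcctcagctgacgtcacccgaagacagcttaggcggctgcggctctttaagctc

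Neither Cidec window held any of the 4 motifs. AGGTCA was found in the windows of 3 members, Plin2, Plin5 and Abhd5, that is in 3 of 12 windows beside 14.04% of all 32536 windows of this length. CACGTG was found in 0 of the 12 windows beside 6.036% of all windows. GGGCGG was found in 8 windows of 7 members beside 32.97% of all windows, and TATAAA in 1 window, that of Cideb, beside 12.31%. These matches describe letters in a window and say nothing of factor binding.

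The targeted gene separated the genotypes. Rps2 mRNA lay between 46.9 and 83.0 CPM (counts scaled to the same library total) in A226Y and between 104 and 143 CPM in WT, without overlap, and the log2 fold change was −0.73 (SE 0.11, edgeR quasi-likelihood test, adjusted p = 0.000772). Total counts ran from 23850565 to 62126131 in A226Y and from 25869192 to 34918732 in WT. All 10 members passed the filter on low counts, each with at least 10 counts in 10 of 10 A226Y and 8 of 8 WT mice. Across the 13353 genes tested, 1910 were called at an adjusted p under 0.05, which is 14.3%, and of all genes 7.27% were called higher and 7.03% lower in A226Y. A226Y animal 29 and WT animal 33 correlated least with their group (median r 0.966 and 0.973), and values without them are given where they move a result. The 10 hepatocyte markers, albumin among them, were abundant in every library. Their summed levels were 94300 to 166000 CPM in A226Y and 103000 to 198000 CPM in WT. By edgeR 2 of these markers were called higher and 1 lower, with 4 higher and 3 lower at an unadjusted p under 0.05. DESeq2 called 3 higher and 2 lower, and limma-voom 2 higher and 0 lower. In whole liver, fewer cells of a type and less RNA per cell cannot be told apart.

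Among the members, Cidec, Plin5 and Pnpla2 had higher mRNA levels in A226Y liver. Cidec averaged 3.18-fold the WT level, Plin5 1.54-fold and Pnpla2 1.45-fold. These 3 of 10 were called higher, beside 7.27% of all genes, and 0 were called lower, beside 7.03%. The contrast that gave these calls is the one that chose the genes, so nothing is read from the count. At an unadjusted p under 0.05, 3 members were higher and 1, Pnpla3, was lower, and DESeq2 and limma-voom also called 3 higher and 0 lower. The log2 fold change was positive for 6 members and negative for 4, and the members' median was 0.12 beside −0.00 over all genes tested. With 4 surrogate variables, estimated from the data as covariates, 0 members were called by edgeR, and 1 was higher and 1 lower at an unadjusted p under 0.05. The CPM ranges of the genotypes overlapped for all 10 members. Over all genes only 0.637% had ranges without overlap, so overlap is the usual case.

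**Figure D1:**
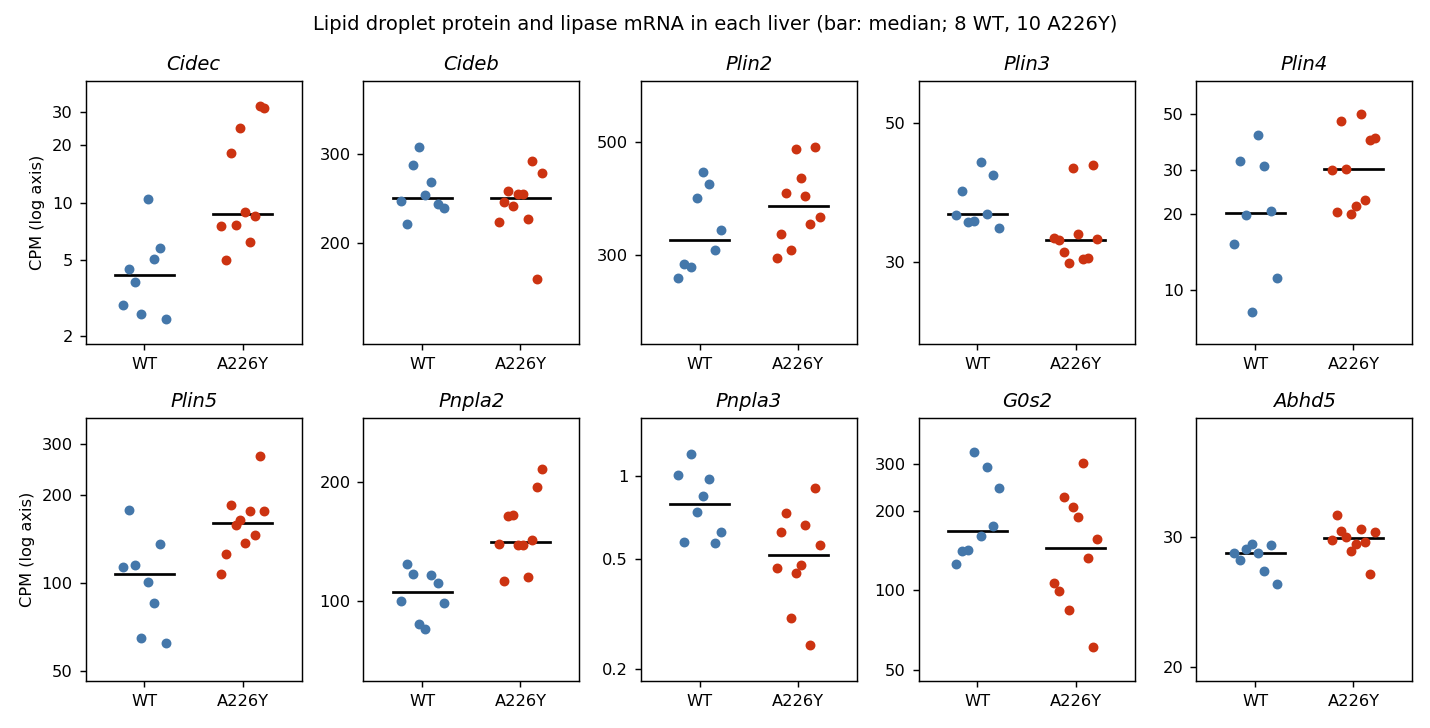
Level of each member in every liver, in CPM on a log axis, with 8 WT mice in blue, 10 A226Y mice in red and a bar at each group's median. Cidec in A226Y splits into 6 mice at or under 8.92 CPM and 4 at or over 18.3 CPM, and 8 of 10 A226Y mice lie above all WT mice for Pnpla2.

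**Figure D2:**
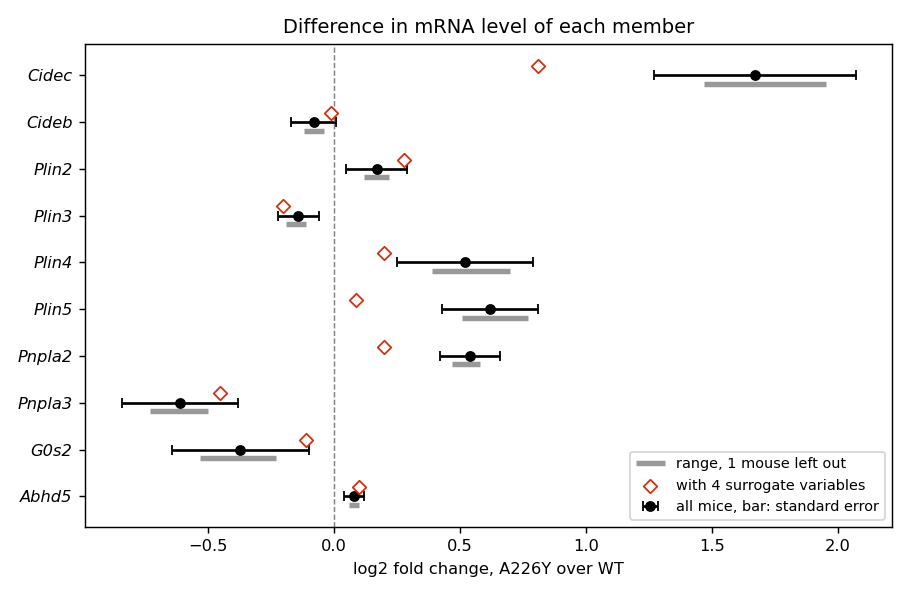
Log2 fold change of each member, A226Y over WT, with its standard error (black), the range when 1 mouse at a time is left out (grey) and the value with 4 surrogate variables as covariates (open diamonds). With surrogate variables Cidec moves from 1.67 to 0.81, Plin5 from 0.62 to 0.09 and Pnpla2 from 0.54 to 0.20.

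The first members described are the genes of the fusion proteins. Cidec (ENSMUSG00000030278, chr6:113424634-113435760, minus strand, GRCm38), which drives the growth of large droplets, had a lowest, median and highest level of 4.99, 8.74 and 32.2 CPM in A226Y and of 2.45, 4.17 and 10.5 CPM in WT. All 10 A226Y mice exceeded the WT mean, but 4 of them, animals 7, 15, 29 and 32, accounted for the upper range at 18.3, 24.6, 32.2 and 31.5 CPM, and the other 6 lay within the range of the WT group. The means were 15.0 ± 10.7 CPM (SD, n = 10) and 4.71 ± 2.64 CPM (SD, n = 8), and the log2 fold change was 1.67 (SE 0.40). It ran from 1.47 without A226Y animal 29 to 1.95 without WT animal 21, the highest WT mouse. Without animals 29 and 33 together it was 1.38, and with 4 surrogate variables it was 0.81. Cideb (ENSMUSG00000022219, chr14:55754050-55758458), the hepatocyte family member that also acts in the loading of lipoproteins, held 170, 245 and 291 CPM in A226Y and 218, 246 and 311 CPM in WT. Animal 29 was under all WT mice and the other 9 A226Y mice were not, with a log2 fold change of −0.08 (SE 0.09). Of its 1488 exon bases, 1136 are shared with Nop9 on the opposite strand, and counting by strand is not stated, so the Cideb level is uncertain.

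Cidec is abundant in white adipocytes, so adipocyte markers were set beside it. Adipocyte markers at or near 0 were Adipoq, at most 0.837 CPM in any liver, Plin1 at 0.287, Lep at 0.341, Retn at 0.441 and Cidea at 0.141 CPM. Within A226Y, Adipoq, Plin1 and Lep were highest in animal 3 and Cfd in animal 23, both among the 6 mice with lower Cidec, whereas Retn, Fabp4 (13.6 CPM) and Lipe were highest in animal 29 and Cidea in animal 32, both among the 4 mice with high Cidec. The summed level of the 8 markers ranged from 20.9 to 34.9 CPM (median 24.4) in A226Y and from 18 to 28.8 CPM (median 22.7) in WT, 2 of 8, Fabp4 and Lipe, were abundant enough to be tested, and 0 were called by edgeR, whereas 1, Fabp4, was higher at an unadjusted p under 0.05 and by DESeq2, and 0 by limma-voom. Of the other cell types, 1 of 7 macrophage markers was lower by edgeR and by limma-voom, 2 were lower by DESeq2 and 4 at an unadjusted p under 0.05. The macrophage list's median log2 change was −0.44, and its summed levels were 273 to 1060 CPM (median 369) in A226Y and 407 to 834 CPM (median 592) in WT. Of the 8 stellate cell markers, 1 was higher and 2 were lower by all 3 tools, with sums of 367 to 446 CPM in A226Y and 327 to 475 CPM in WT. Of the 6 endothelial and 5 cholangiocyte markers, 0 were called by edgeR, DESeq2 or limma-voom, with 1 endothelial marker lower and 1 cholangiocyte marker higher at an unadjusted p under 0.05, and sums were 228 to 338 CPM and 13.1 to 29.9 CPM in A226Y beside 239 to 320 CPM and 12.1 to 25.9 CPM in WT. The part of these cell types in the member levels was not tested.

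The perilipin genes follow. Plin5 (ENSMUSG00000011305, chr17:56111601-56117596), the perilipin of oxidative tissues that tethers droplets to mitochondria, had 107, 161 and 273 CPM as lowest, median and highest level in A226Y and 62.2, 107 and 178 CPM in WT. Only animals 7 and 29 exceeded every WT mouse, although 9 of 10 A226Y mice exceeded the WT mean. The log2 fold change of Plin5 was 0.62 (SE 0.19), from means of 165 ± 45.4 CPM (SD, n = 10) and 107 ± 38.3 CPM (SD, n = 8). It ran from 0.51 to 0.77 when 1 mouse was left out, and Plin5 was called in 9 of 18 such fits. It was not called without A226Y animals 7, 11, 22 or 32 or without WT animals 13, 14, 21, 24 or 33, and without animals 29 and 33 together its log2 fold change was 0.43. With 4 surrogate variables it was 0.09.

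Plin4 (ENSMUSG00000002831, chr17:56100591-56109803), an exchangeable perilipin best known from adipocytes and muscle, had 20.1, 30.2 and 50.3 CPM in A226Y and 8.19, 20.2 and 41.2 CPM in WT. The spread among WT mice was wide, and the log2 fold change was 0.52 (SE 0.27), from 0.39 to 0.70 when 1 mouse was left out and 0.20 with 4 surrogate variables. Plin2 (ENSMUSG00000028494, chr4:86648386-86670060), the main droplet coat protein of hepatocytes, had 296, 373 and 488 CPM in A226Y and 270, 321 and 437 CPM in WT. Its groups overlapped over most of their ranges, with a log2 fold change of 0.17 (SE 0.12). Plin3 (ENSMUSG00000024197, chr17:56277476-56292873), which moves from the cytosol to newly formed droplets, had 29.9, 32.5 and 42.9 CPM in A226Y and 34.0, 35.7 and 43.3 CPM in WT. Although 8 of 10 A226Y mice were under all WT mice, the remaining 2 were near the highest WT mouse, and the log2 fold change was −0.14 (SE 0.08). Plin4, Plin5 and Plin3 lie within 192 kb of chromosome 17, with 1797 bases between Plin4 and Plin5, and the targeted Rps2 lies 31.4 Mb away on the same chromosome. Linked 129/Sv sequence and genotype cannot be told apart for these 3 genes.

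**Figure D3:**
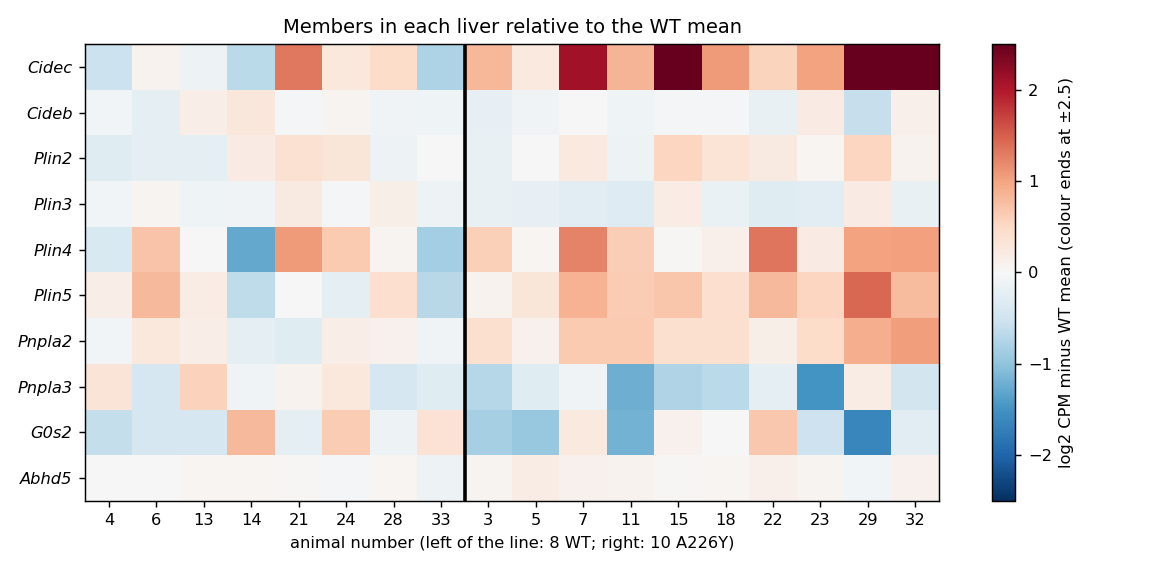
Log2 CPM of each member in every liver minus the WT mean, by animal number, with WT to the left of the line and A226Y to the right; the colour scale ends at 2.5. Cidec is darkest in A226Y animals 15, 29 and 32, animal 29 also has the highest Plin5 and the lowest G0s2 and Cideb levels, and Abhd5 is nearly even across all 18 livers.

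The log2 fold changes of the 2 lipases had opposite signs. Pnpla2 (ENSMUSG00000025509, chr7:141455198-141460743), the adipose triglyceride lipase, had 112, 140 and 215 CPM in A226Y and 84.6, 105 and 124 CPM in WT. Of the 10 A226Y mice, 8 were above every WT mouse, and the lower 2, animals 5 and 22 at 112 and 115 CPM, lay within the WT range. With means of 152 ± 32.9 CPM (SD, n = 10) and 105 ± 14.5 CPM (SD, n = 8), the log2 fold change was 0.54 (SE 0.12). It ran from 0.47 to 0.58 when 1 mouse was left out, and was 0.20 with 4 surrogate variables. Pnpla3 (ENSMUSG00000041653, chr15:84167837-84187236), a related droplet protein whose gene is induced by feeding and SREBP-1c, was the least abundant member, with 10 to 31 counts per A226Y mouse and 18 to 36 per WT mouse. Its lowest, median and highest levels were 0.244, 0.52 and 0.911 CPM in A226Y and 0.575, 0.795 and 1.21 CPM in WT, so that 6 of 10 A226Y mice lay under all WT mice. The log2 fold change of Pnpla3 was −0.61 (SE 0.23), and it was not called with all mice but was called lower when A226Y animal 29, its highest A226Y mouse, was left out, at −0.73.

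Pnpla2 has an inhibitor and an activator among the members. G0s2 (ENSMUSG00000009633, chr1:193272161-193273217), the inhibitor, had 61.2, 145 and 304 CPM in A226Y and 126, 168 and 334 CPM in WT. Although 4 A226Y mice were under all WT mice, the groups overlapped widely, with means of 157 ± 75 CPM (SD, n = 10) and 202 ± 78.4 CPM (SD, n = 8) and a log2 fold change of −0.37 (SE 0.27). It ran from −0.53 without A226Y animal 22 to −0.23 without WT animal 14, and was also −0.23 without animals 29 and 33 together and −0.11 with 4 surrogate variables. Abhd5 (ENSMUSG00000032540, chr9:122351608-122381524), the activator also called CGI-58, was the steadiest member, with a coefficient of variation of 4.78% in A226Y and 4.17% in WT. It had 26.7, 29.8 and 32.1 CPM in A226Y and 25.9, 28.5 and 29.3 CPM in WT, and 7 of 10 A226Y mice were above every WT mouse, with a log2 fold change of 0.08 (SE 0.04). An antisense transcript, A730085K08Rik, shares 950 of its exon bases, so its level is uncertain without strand.

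Levels between genes were compared per length, in TPM form (counts per kilobase of merged exons, scaled to the same total in each liver). On this scale G0s2 and Cideb had the highest means, at 469 and 424 TPM in A226Y and 579 and 431 TPM in WT, followed by Plin2 (285 and 243), Plin5 (208 and 129) and Pnpla2 (132 and 87.0). Lower down stood Plin3 at 23.4 TPM in A226Y and 24.8 TPM in WT, Plin4 at 14.7 and 9.88, and Abhd5 at 13.1 and 11.9. Cidec was seventh of 10 in A226Y at 21.4 TPM and ninth in WT at 6.46 TPM. Pnpla3 was last in both, at 0.927 and 1.33 TPM. Neighbours in this order overlapped in their ranges except Pnpla2 with Plin3 and the step down to Pnpla3 in both genotypes, and in WT also Cideb with Plin2 and Plin3 with Abhd5. G0s2 exceeded Cideb in 4 of 10 A226Y and 6 of 8 WT mice. Per length of the longest transcript the order at the top turned in A226Y, where Plin2 was highest at 439 TPM, above Cideb at 430 and G0s2 at 388. Lower down in A226Y, Abhd5 moved from rank 9 to rank 6 at 20.4 TPM, and Cidec from rank 7 to rank 8 at 19.1 TPM. In WT, Plin4 exceeded Cidec in 8 of 8 mice although their ranges overlapped, and in A226Y Cidec exceeded Plin4 in 6 of 10 mice.

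Variation between mice of a genotype did not enter the choice of genes, and 5 pairs picked by known function were tested in each genotype. Of the 10 relations, 1 passed Benjamini-Hochberg adjustment by Pearson's r, Cidec with Plin4 in WT, and 0 by Spearman's rho. Across the 8 WT mice Pearson's r was 0.863 (two-sided exact permutation test, p = 0.00293, adjusted p = 0.0293) and Spearman's rho was 0.881 (exact permutation p = 0.00724, adjusted p = 0.0724). Without animals 21 and 33, the 2 farthest from the Cidec median, r was 0.799. Leaving out animal 4, 13, 14, 21, 24 or 33 alone raised the adjusted p above 0.05, with r between 0.831 and 0.907 over all such repeats. In A226Y the Cidec levels fell into separate ranges of 6 and 4 mice, so a correlation over all 10 spans the step between them. Over all 10, Cidec and Plin2 gave r = 0.627 and rho = 0.697 (permutation p = 0.0594 and 0.0307, adjusted p = 0.297 and 0.153), and r was 0.688 without animals 29 and 32. Cidec and Plin4 gave r = 0.285 and rho = 0.115 (permutation p = 0.41 and 0.76, adjusted p = 0.574 and 0.76), and r was −0.0145 without the same animals. Neither relation passed, and within the lower 6 mice, a range set after the values were seen, r was 0.177 with Plin2 and −0.154 with Plin4. A difference between the genotypes in these relations was not tested.

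The lipase and its cofactors did not covary detectably. G0s2 and Pnpla2 gave r = −0.338 and rho = −0.358 in A226Y (permutation p = 0.342 and 0.315, adjusted p = 0.57 and 0.577) and r = −0.293 and rho = −0.381 in WT (exact permutation p = 0.46 and 0.36, adjusted p = 0.574 and 0.577). Without the 2 mice farthest from the G0s2 median r was 0.213 in A226Y and −0.268 in WT. When 1 WT mouse was left out r ran from −0.529 to 0.0284. Abhd5 and Pnpla2 gave r = −0.475 and rho = −0.297 in A226Y (permutation p = 0.179 and 0.41, adjusted p = 0.537 and 0.577) and r = −0.136 and rho = −0.214 in WT (exact permutation p = 0.779 and 0.619, adjusted p = 0.779 and 0.688). Their r turned to 0.238 in A226Y when animals 5 and 29 were left out, and was −0.327 in WT without animals 24 and 33. Leaving out 1 WT mouse at a time gave −0.423 to 0.0721. Pnpla3 and Srebf1, which encodes SREBP-1, gave r = −0.43 and rho = −0.455 in A226Y (permutation p = 0.215 and 0.192, adjusted p = 0.537 and 0.577) and r = 0.264 and rho = 0.31 in WT (exact permutation p = 0.517 and 0.462, adjusted p = 0.574 and 0.577). Without the 2 farthest mice their r was −0.261 and 0.347. In WT it ran from −0.0326 to 0.469 when 1 mouse was left out. Cidec and Plin2 in WT gave r = 0.434 and rho = 0.357 (exact permutation p = 0.293 and 0.389, adjusted p = 0.57 and 0.577), and r was 0.0436 without animals 21 and 33.

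**Figure D4:**
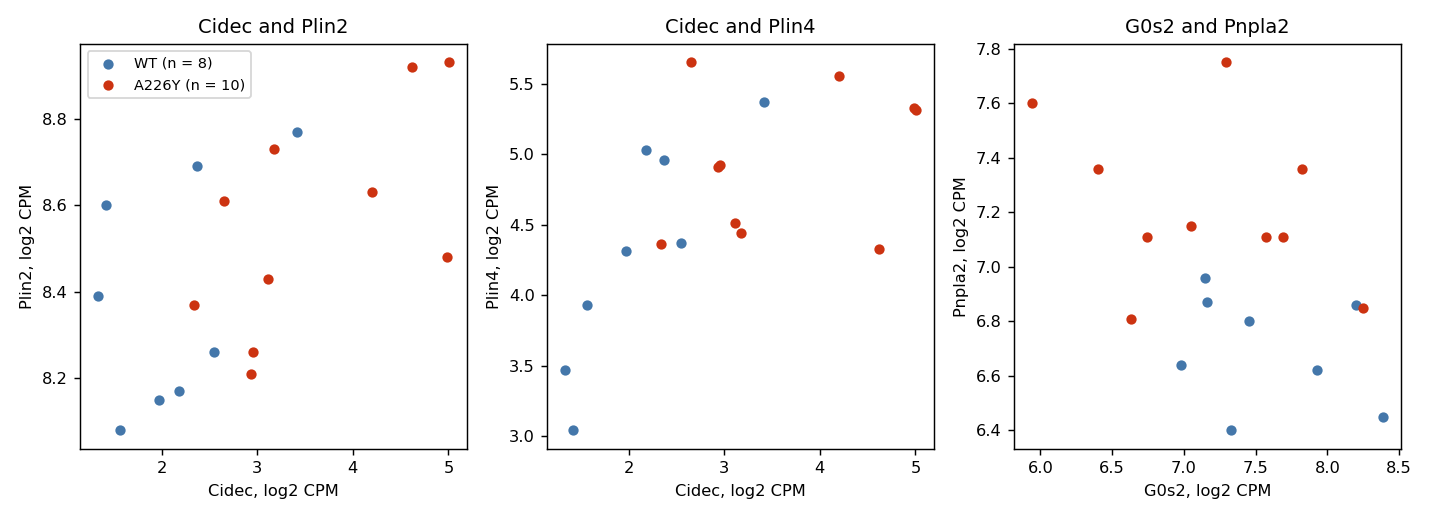
Cidec with Plin2, Cidec with Plin4 and G0s2 with Pnpla2, each point 1 liver in log2 CPM, with WT in blue (n = 8) and A226Y in red (n = 10). Plin4 follows Cidec among WT mice (r = 0.863), and the red points of Cidec stand in 2 separate ranges.

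Over the 45 pairs of members, r in A226Y ran from −0.74 (Plin3 with Abhd5) to 0.80 (Cidec with Pnpla2), with a median of 0.16. Over the 36 of these pairs without Cidec, whose A226Y levels lie in separate ranges, the highest r was 0.75 (Plin2 with Plin3) and the median 0.10. Over the 45 pairs r in WT ran from −0.78 (Plin5 with G0s2) to 0.88 (Cidec with Plin3), with a median of 0.0086. These are descriptions over 10 and 8 mice whose members share a library. The 5 genes whose log2 CPM, centred on each genotype mean, followed Cidec most closely over the 18 livers were Rab11fip3 (r = 0.835), Ccnd3 (0.829), Kctd17 (0.824), Flywch1 (0.819) and Neurl4 (0.813). These values include the 4 A226Y mice with high Cidec, which stand apart and weigh on r, and within WT alone r was 0.486 to 0.65. Of these, Flywch1 differed between genotypes (log2 fold change 0.39, SE 0.10, adjusted p = 0.0167) and Rab11fip3 had a log2 fold change of 0.07 (SE 0.10). Among the members Plin3 followed Cidec most closely over the 18 livers, at r = 0.716.

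The other genes of the droplet were taken from 4 lists by function, none of them a member. Of 102 genes listed 97 were tested, and 25.8% of these were called, 11 higher and 14 lower in A226Y, beside 14.3% of all genes. The lists were chosen with earlier results of these data known, so nothing is read from the shares called, pooled or list by list. The median log2 fold change over the 97 was −0.033, beside −0.00 over all genes tested. With 4 surrogate variables as covariates 1 of them, Insig2, was called higher and 0 lower, with 9 higher and 16 lower at an unadjusted p under 0.05. In that fit the 25 genes kept their sign, but all 25 log2 fold changes were smaller, 17 of them by over 1.5 times. Fitm1 stood at −0.75, Srebf1 at −0.48, Ces3a at −0.55, Dgat2 at −0.26, Ppargc1a at 0.19, Lpin2 at 0.16 and Insig2 at 0.82.

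Among genes of droplet formation, 2 of 28 rose, 3 fell and 23 did not pass, which is 17.9% called beside 14.3% of all genes. The list's median log2 change was 0.007. Fitm1, whose product partitions triglyceride into budding droplets, fell most, from 28.9 ± 16.9 CPM (SD, n = 8) to 7.44 ± 3.97 CPM (SD, n = 10), a log2 fold change of −1.96 (SE 0.36, adjusted p = 0.00282). All 10 A226Y mice lay under its WT mean. Mettl7a1, a droplet-associated methyltransferase-like protein, had a log2 fold change of −0.55 (SE 0.10, adjusted p = 0.00295) and Acsl3, an acyl-CoA synthetase of nascent droplets, of −0.53 (SE 0.15, adjusted p = 0.0261). The Acsl3 call was lost without WT animal 14, at an adjusted p of 0.0667. The genes that rose were Vps13c, a lipid transfer protein at droplet contacts (0.26, SE 0.07, adjusted p = 0.0195), and Vmp1, an ER protein of droplet and autophagosome formation (0.25, SE 0.07, adjusted p = 0.0243), whose call was lost without WT animal 14 or 21 and with an offset on GC content (0.20, adjusted p = 0.0811). With an offset on transcript length Vps13c stood at 0.11 and was not called (adjusted p = 0.12). Plin1 and Cidea, the adipocyte members of the perilipin and CIDE families, were too low to be tested.

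Of 26 other lipases and esterases 2 rose and 7 fell, which is 34.6% called beside 14.3% of all genes. The list's median log2 change was −0.180. The genes that fell were Lipc, which encodes hepatic lipase, and 6 carboxylesterases. Lipc had a log2 fold change of −0.66 (SE 0.17, adjusted p = 0.0132). Ces3a, a carboxylesterase, stood at 158 ± 47.6 CPM in A226Y (SD, n = 10) and 355 ± 113 CPM in WT (SD, n = 8), a log2 fold change of −1.17 (SE 0.20, adjusted p = 0.0018). The remaining carboxylesterases that fell were Ces2c (−1.50), Ces1g (−0.87), Ces3b (−0.71), Ces1c (−0.40) and Ces2e (−0.38), with adjusted p between 0.00296 and 0.0482. Ces2c was sparse, at 0.929 ± 0.217 CPM in A226Y (SD, n = 10) and 2.63 ± 1.71 CPM in WT (SD, n = 8). Its lowest WT mouse, at 0.534 CPM, lay under every A226Y mouse. The carboxylesterases are related genes that lie in clusters. Reads of 50 bases may be divided among them, which was not measured, so single levels are uncertain. The Ces2e call was lost in 13 of 18 repeats that left out 1 mouse, and under 4 other settings of scaling, filter or length offset. Pnpla7, a lysophospholipase of the patatin-like family, rose by a log2 fold change of 0.44 (SE 0.12, adjusted p = 0.0164), and Nceh1, a neutral cholesterol ester hydrolase, by 0.29 (SE 0.08, adjusted p = 0.0226), a call lost with an offset on GC content (adjusted p = 0.0521). Hormone-sensitive lipase, Lipe, and monoglyceride lipase, Mgll, which act after Pnpla2, had log2 fold changes of 0.00 (SE 0.06) and 0.07 (SE 0.11) and were not called.

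Of 21 genes of triglyceride and sterol ester synthesis 4 rose and 2 fell, which is 28.6% called beside 14.3% of all genes. The list's median log2 change was 0.073. Dgat2, which catalyses the last step of triglyceride synthesis, fell from 803 ± 121 CPM (SD, n = 8) to 584 ± 79.2 CPM (SD, n = 10), a log2 fold change of −0.46 (SE 0.10, adjusted p = 0.00569). Dgat1, which catalyses the same step, had a log2 fold change of 0.06 (SE 0.07, adjusted p = 0.59). Gpat2, a minor glycerol-3-phosphate acyltransferase, was lower at −0.50 (SE 0.13, adjusted p = 0.0142). The genes that rose were the phosphatidate phosphatases Lpin2 (0.55, SE 0.13, adjusted p = 0.0103) and Lpin3 (0.45, SE 0.14, adjusted p = 0.0329) and the acyltransferases Agpat5 (0.31, SE 0.08, adjusted p = 0.0161) and Gpam (0.29, SE 0.08, adjusted p = 0.0229). The Lpin3 call was lost in 9 of 18 repeats that left out 1 mouse, and the Gpam call without WT animal 13 or 14 and with an offset on transcript length (0.21, adjusted p = 0.0681). With the same offset the Agpat5 log2 fold change was 0.16 and its call was lost (adjusted p = 0.263, with a range of 0.00457 to 0.263 over its alternatives).

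Of 22 transcription regulators of lipid metabolism 3 rose and 2 fell, which is 22.7% called beside 14.3% of all genes. The list's median log2 change was −0.033. Insig2, which retains SREBP in the ER, rose from 111 ± 16.3 CPM (SD, n = 8) to 244 ± 131 CPM (SD, n = 10), a log2 fold change of 1.13 (SE 0.23, adjusted p = 0.00423), and it was higher than the WT mean in 10 of 10 A226Y mice. Ppargc1a, a coactivator of fatty acid oxidation, rose by a log2 fold change of 0.74 (SE 0.16, adjusted p = 0.00539) and the deacetylase gene Sirt1 by 0.28 (SE 0.06, adjusted p = 0.00866). Srebf1, which encodes the lipogenic factor SREBP-1, fell from 209 ± 71.9 CPM (SD, n = 8) to 89.8 ± 40.7 CPM (SD, n = 10), a log2 fold change of −1.22 (SE 0.26, adjusted p = 0.00551). Mlxipl, which encodes the carbohydrate-sensing factor ChREBP, had a log2 fold change of −0.53 (SE 0.11, adjusted p = 0.00389). Pparg and Ppara, nuclear receptors known to act on perilipin and CIDE genes, had log2 fold changes of −0.04 (SE 0.12) and 0.00 (SE 0.10) and were not called.

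**Figure D5:**
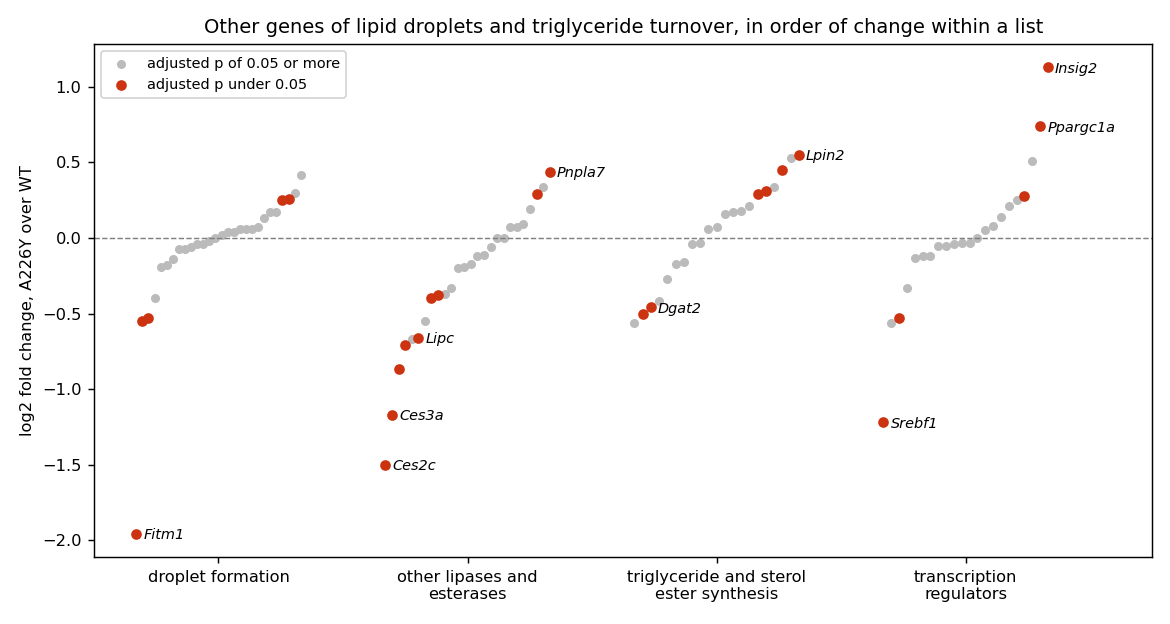
Log2 fold change, A226Y over WT, of the 97 tested genes of the 4 lists, each list in rising order, with the 25 genes of adjusted p under 0.05 in red. Fitm1 at −1.96 and Insig2 at 1.13 stand at the ends, and 7 of the 9 red points among other lipases and esterases are under 0.

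Several members respond to feeding, and the feeding state at collection is not given in the sources used here. Of 8 fasting-induced genes 0 were called by edgeR, 5 were higher at an unadjusted p under 0.05, 3 were called higher by DESeq2 and 1 by limma-voom, and the list's median log2 change was 0.57 and summed levels of 7530 to 18100 CPM (median 13900) in A226Y and 4370 to 12900 CPM (median 9020) in WT. Of 7 feeding-induced genes, which include Srebf1, 6 were lower and 0 higher, and the list's median log2 change was −0.75 and sums of 1220 to 3160 CPM (median 1670) in A226Y and 1880 to 4490 CPM (median 2500) in WT. Their part in the levels of Cidec, Plin5, Pnpla2 and Pnpla3 was not tested.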

How the data were processed

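Liver mRNA of 10 A226Y and 8 WT mice was sequenced as single reads of 50 bases. The authors deposited, for each mouse, raw counts per Ensembl gene, with no normalization. The methods name RSEM and an older mouse build, whereas the labels list STAR, featureCounts and GRCm38. Which of these made the counts, and whether strand was used, is not given in the sources used here. Symbols and positions came from GENCODE M21 (GRCm38) for 22214 of the 22524 identifiers.

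A gene was tested when 50% or more of the mice of either genotype had 10 or more counts (13353 genes). The genotypes were compared by the quasi-likelihood test of edgeR 4.0.16 (R 4.3.3) after TMM scaling, with Benjamini-Hochberg adjustment over all genes tested, and a gene was called at an adjusted p under 0.05. CPM used the same scaling, and log2 CPM a prior count of 2. The standard error was the log2 fold change divided by the square root of F. The common biological coefficient of variation was 0.194, and among the members counting error was greatest for Pnpla3, with 10 to 36 counts per mouse. Member pairs were tested by permutation (exact over 8 mice, 100000 resamples over 10). No libraries were alike within sampling noise; animals carry their own numbers, and nothing states how they were housed or batched.

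The members and lists were chosen with earlier results of these data known. Named genes were the members, Rps2, the called genes of the lists (the 20 with the greatest log2 fold change in size, and 5 more added after their values were seen, along with Dgat1, Lipe, Mgll, Pparg and Ppara) and the 5 genes most like Cidec. Alternatives were RLE or library-size scaling, other filters, DESeq2 1.42.0, limma-voom 3.58.1, 4 surrogate variables (sva 3.50.0), offsets on transcript length and GC content, and leaving out mice. In simulated counts for this comparison (13368 genes), edgeR recovered 200 of 200 changed genes with 16 false calls. With a simulated length bias (13399 genes) or GC bias (13413 genes) it made 1840 and 2943 false calls, and 8 and 20 with the matching offset. Recovery at the members' own log2 fold changes, spread and counts was not tested.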

Additional observations from a re-analysis of the deposited data

Results flagged for a closer look

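In a search for single mice far from the rest, run over the 10 members in each genotype (20 groups), 1 was found: Cideb in A226Y, where animal 29 was lowest at 170 CPM and its gap to the next mouse, at 220 CPM, was 0.484 of the group's whole range in log2 CPM. With 20 groups searched, 1 flag can arise by chance, and the groups share mice, so they are not independent. The same animal had the highest Cidec and Plin5 levels and the lowest G0s2 level of its group, and it had the lowest median correlation with the other A226Y livers, at 0.966.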

How the results depend on the processing

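The number of members called higher was 3, and those called lower 0, under the 8 alternatives of scaling, filter, test and offset, and in each of these Cidec, Plin5 and Pnpla2 were the members called. With 4 surrogate variables as covariates 0 members were called higher, 50 genes were called in all, and the log2 fold change was 0.81 for Cidec, 0.09 for Plin5 and 0.20 for Pnpla2; the cause was not tested. In that fit 1 gene of the lists was called higher, Insig2 (adjusted p = 0.0128), and 0 lower, against 11 and 14. Leaving out 1 mouse gave 2 to 3 members higher, 0 to 1 lower (1 without A226Y animal 29), 8 to 13 list genes higher and 12 to 20 lower, among 1255 to 2560 genes called. Without A226Y animal 29 and WT animal 33, chosen after the data were seen, 2 members were higher and 1, Pnpla3, lower. With library-size scaling alone 67.9% of calls were higher, against 50.8%. The correlation of Cidec with Plin4 in WT ran from 0.831 to 0.907 when 1 mouse was left out. Per longest transcript in place of merged exons, 5 of 20 member levels moved beyond 1 SD. Cidec, Plin5 and Pnpla2 kept a positive log2 fold change in every alternative run. Offsets on length and GC left 1563 and 1642 genes called. No paired analysis was possible because no animal number occurs in both genotypes. Counts of 10 to 36 limit Pnpla3.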
